A study of Mus musculus with 16 samples.

Results

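The genes described here are 9 members of the machinery that releases fatty acids from stored fat in adipocytes, measured by bulk RNA sequencing of mouse inguinal white adipose tissue, the subcutaneous fat depot of the groin. They were chosen by name as enzymes, cofactors and receptors of lipolysis: Pnpla2, Abhd5, G0s2, Pnpla3, Lipe, Mgll, Adrb3, Adra2a and Pde3b. All 9 were found among the 55487 genes of the count table, and all 9 were among the 16549 genes with enough reads to be tested.

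The tissue came from male mice aged 6 to 7 months in 4 groups of 4 libraries each: Kmo knockout on a high-fat diet (KO HFD), wild type on a high-fat diet (WT HFD), Kmo knockout on chow (KO chow) and wild type on chow (WT chow). The knockout is of the whole body, so no tissue is spared, and the wild-type mice were its littermates. Kmo encodes kynurenine 3-monooxygenase, an enzyme of tryptophan breakdown. RNA was selected for poly-A tails, and the labels give no fat content of the diet and no length of feeding. Each library held between 13824404 and 16909361 read pairs assigned to genes, so 1 CPM, the unit of counts scaled to library size used below, stood for 14.1 to 16.5 counted pairs. Kmo itself averaged 0.0992 ± 0.0337 CPM in KO HFD tissue, 6.66 ± 4.87 CPM in WT HFD tissue, 0.259 ± 0.191 CPM in KO chow tissue and 11 ± 7.27 CPM in WT chow tissue (SD, n = 4 each). Kmo was lower in each KO library than in any WT library. Adipocyte markers were abundant throughout, with Adipoq at means of 2555 CPM on HFD and 2219 CPM on chow. Epithelial markers were at or near 0, their 5 genes summing to at most 2.7 CPM in any library.

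In an adipocyte, noradrenaline acts on the beta-3 adrenergic receptor, which raises cyclic AMP and activates protein kinase A. The kinase releases the coactivator ABHD5 from the droplet coat, and the lipases ATGL, hormone-sensitive lipase and monoglyceride lipase then remove the fatty acids of a triglyceride in turn. G0S2 binds and inhibits ATGL, the alpha-2A receptor lowers cyclic AMP, and the phosphodiesterase PDE3B, which insulin activates, breaks cyclic AMP down.

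Libraries differed in how much lymphoid RNA they held, which touches several of the results. A lymphoid score, taken as the average over 15 marker genes of T cells and B cells on the log2 CPM scale, lay between 4.55 and 5.84 in 6 libraries and between -0.79 and 2.78 in the other 10. The 6 were KO HFD replicate 1, WT HFD replicate 2, KO chow replicates 1 and 3, and WT chow replicates 2 and 4. The high scores were in 2 of 8 HFD libraries and 4 of 8 chow libraries. All 15 markers had log2 fold changes below 0 for HFD against chow over both genotypes, with medians of -2.14 for the 8 T-cell and -1.01 for the 7 B-cell markers, though none passed edgeR's test (lowest adjusted p = 0.116). Skeletal muscle markers also varied widely, summing to between 15.8 and 4259 CPM in single libraries. In bulk tissue, fewer cells of a type and less RNA per cell cannot be told apart.

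**Figure D1:**
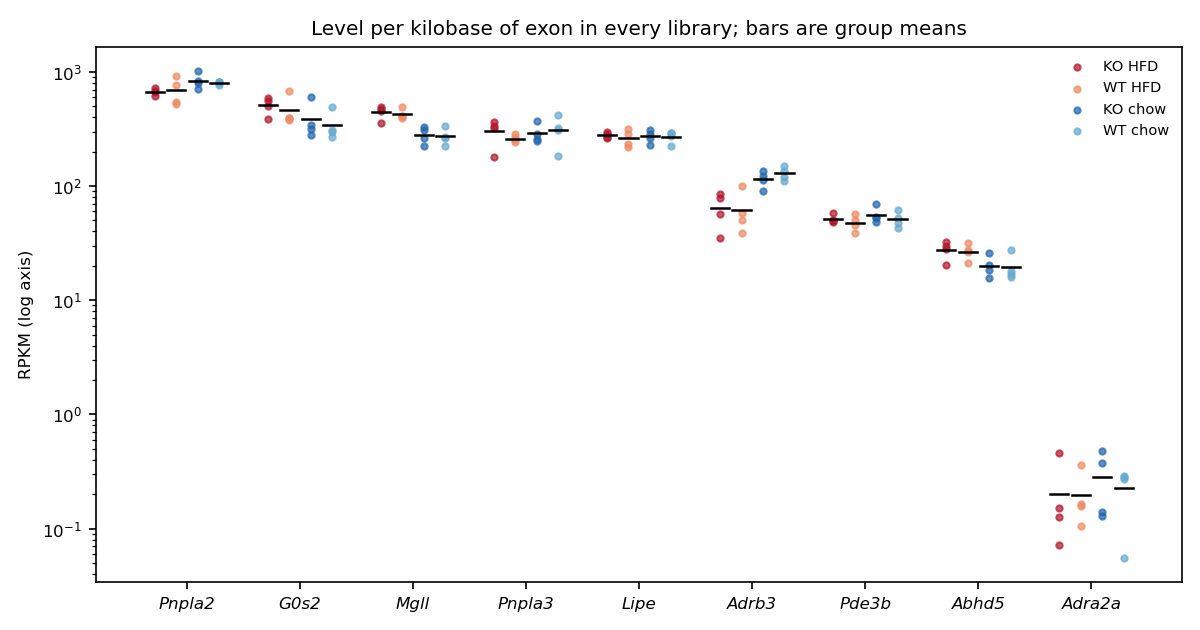
Level of the 9 genes per kilobase of exon (RPKM, log axis) in each of the 16 libraries, with points for libraries and bars for group means, in the order KO HFD, WT HFD, KO chow and WT chow for each gene. Pnpla2 had the highest mean in every group, and Adra2a lay at means of 0.196 to 0.282 RPKM.

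Per kilobase of exon (CPM divided by the summed exon length, RPKM), Pnpla2 had the highest mean level of the 9 in every group, at 670 ± 42.6 RPKM in KO HFD tissue, 689 ± 190 RPKM in WT HFD tissue, 840 ± 127 RPKM in KO chow tissue and 803 ± 25.8 RPKM in WT chow tissue (SD, n = 4 each). G0s2 came next in every group, with means of 509, 463, 384 and 342 RPKM in the same order of groups. Its single libraries overlapped those of the gene below it in all 4 groups, and those of Pnpla2 in the WT HFD group. Mgll, Pnpla3 and Lipe followed. Mgll ranked above Pnpla3 and Lipe in both HFD groups, at 443 and 426 RPKM in KO and WT tissue. Its HFD libraries lay clear above those of Lipe in both genotypes. They lay clear above those of Pnpla3 in WT tissue and overlapped them in KO tissue. On chow, Pnpla3, Mgll and Lipe were at means of 292, 282 and 272 RPKM in KO tissue and 311, 272 and 269 RPKM in WT tissue, and their single libraries overlapped in both. Adrb3 was at 64.2 and 61.8 RPKM in KO and WT HFD tissue, where it overlapped Pde3b at 51.6 and 47.9 RPKM. On chow it lay clear above Pde3b, at 116 and 129 RPKM in KO and WT tissue against 56.2 and 51.2 RPKM for Pde3b. Abhd5 was below both in every group, with means from 19.7 to 27.7 RPKM. Adra2a was close to the limit of detection, with 4 to 37 counted pairs in a library. Exon bases shared with another gene were 950 for Abhd5, 918 for Lipe, 839 for Adrb3, 167 for Mgll and 105 for Pnpla3. Reads of such stretches cannot be assigned to 1 gene, and the levels per kilobase and their ratios were not corrected for this.

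The first comparison asked what the high-fat diet did to these genes. Mgll and Abhd5 were higher on HFD than on chow, at 1.57-fold and 1.36-fold over both genotypes, and Adrb3 was lower, at 0.514-fold. Pnpla2, G0s2, Pnpla3, Lipe, Adra2a and Pde3b did not pass the test. Members were called by edgeR's quasi-likelihood test at an adjusted p under 0.05 (Benjamini-Hochberg over the 16549 genes). Within KO mice 1 of 9 was called, Mgll, where 12.5% of all genes were. Within WT mice 2 of 9 were called, Mgll and Adrb3, against 11.8% of all genes. Over both genotypes 3 of 9 were called (2 higher, 1 lower), against 33.1% of all genes, so the share of members called was near that background. Their median log2 fold change over both genotypes was -0.10, beside -0.04 over all genes. With the 10 libraries of low lymphoid score alone, a choice made after seeing the data, the count over both genotypes was 1 of 9 and within each genotype 0 of 9. Calls were also fewer over all genes there: 3544 of 16436 over both genotypes, 768 in KO mice and 625 in WT mice.

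**Figure D2:**
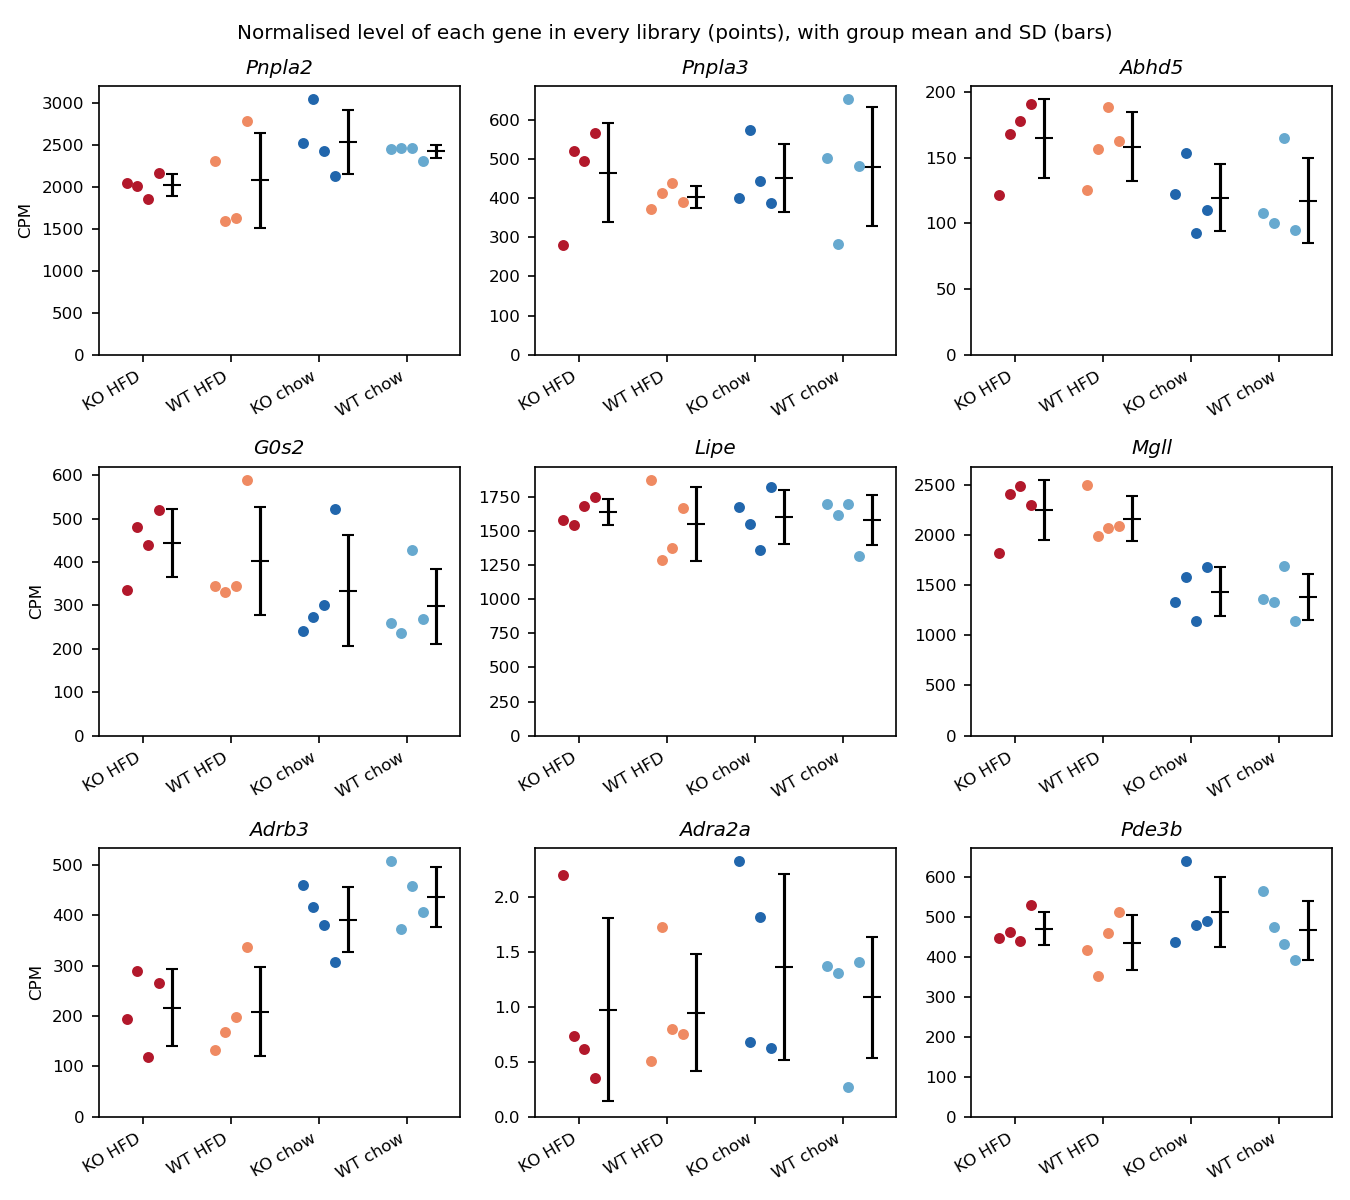
Normalised level (CPM, axis from 0) of each gene in every library, points being libraries and bars the group mean with its SD (n = 4). For Mgll every HFD library lies above every chow library, at 1816 CPM and more against 1692 CPM and less, and for Adrb3 the HFD points lie below the chow points of the same genotype.

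Pnpla2 encodes ATGL, the lipase that takes the first fatty acid off a triglyceride, and lies on chr7:141455198-141460743 of GRCm38 (plus strand, ENSMUSG00000025509). Coordinates here and below are gene spans of the Ensembl annotation in that build. It had 2046, 2015, 1859 and 2172 CPM in KO HFD libraries, 2308, 1593, 1636 and 2784 CPM in WT HFD libraries, 2528, 3055, 2434 and 2132 CPM in KO chow libraries, and 2453, 2471, 2472 and 2310 CPM in WT chow libraries. The HFD values were lower on average, but the WT HFD libraries spread widely and overlapped both chow groups. By edgeR the log2 fold change of HFD against chow was -0.27 (SE 0.12) over both genotypes, with an edgeR adjusted p of 0.0952. Without WT HFD replicate 4, the highest of its group, it was -0.36 and was called, at an adjusted p of 0.0237.

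Abhd5 (chr9:122351608-122381524, plus strand, ENSMUSG00000032540) encodes the coactivator of ATGL, also known as CGI-58. Its levels were 122, 168, 178 and 191 CPM in KO HFD libraries and 125, 157, 189 and 163 CPM in WT HFD libraries. They were 122, 153, 93.1 and 110 CPM in KO chow libraries and 108, 101, 165 and 95.2 CPM in WT chow libraries. The HFD libraries were mostly the higher ones, but the diets overlapped in both genotypes. Over both genotypes Abhd5 rose by 0.45 on the log2 scale (SE 0.14, 95% interval 0.15 to 0.75), with an edgeR adjusted p of 0.0232. Within one genotype it did not pass: the log2 fold change was 0.46 in KO mice (adjusted p = 0.133) and 0.43 in WT mice (adjusted p = 0.157) by edgeR. The call over both genotypes was lost without WT HFD replicate 3 (0.40, adjusted p = 0.0522), and within WT mice it was gained without WT chow replicate 3 (0.65, adjusted p = 0.0327). In the 10 libraries of low lymphoid score it was 0.33 (edgeR adjusted p = 0.147).

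G0s2 (chr1:193272161-193273217, minus strand, ENSMUSG00000009633) encodes the inhibitor of ATGL. It had 336, 481, 438 and 519 CPM in KO HFD libraries, 346, 331, 345 and 590 CPM in WT HFD libraries, 242, 273, 300 and 522 CPM in KO chow libraries, and 259, 236, 427 and 269 CPM in WT chow libraries. One library in each chow group, KO replicate 4 and WT replicate 3, reached into the HFD range. The log2 fold change of HFD against chow was 0.42 (SE 0.19) over both genotypes and missed the threshold at an edgeR adjusted p of 0.0936. It was called without KO chow replicate 4 (0.57, adjusted p = 0.0143) or without WT chow replicate 3 (0.54, adjusted p = 0.0314), and fell to 0.22 (adjusted p = 0.210) with the lymphoid score as a covariate.

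Set against Pnpla2 in the same library, per kilobase, G0s2 was at a ratio of 0.761 ± 0.127 in KO HFD tissue, 0.677 ± 0.105 in WT HFD tissue, 0.480 ± 0.251 in KO chow tissue and 0.425 ± 0.120 in WT chow tissue (SD, n = 4 each). The ratio of Abhd5 to Pnpla2 was 0.0414 ± 0.00794 in KO HFD tissue, 0.0414 ± 0.0152 in WT HFD tissue, 0.0239 ± 0.00306 in KO chow tissue and 0.0245 ± 0.00632 in WT chow tissue. Abhd5 relative to G0s2 was at 0.0543 ± 0.00357 in KO HFD tissue, 0.0607 ± 0.0175 in WT HFD tissue, 0.0580 ± 0.0241 in KO chow tissue and 0.0579 ± 0.00483 in WT chow tissue. The mean ratios of the coactivator and of the inhibitor to the lipase were higher on HFD in both genotypes. The group means of coactivator relative to inhibitor lay close together, but this ratio ran from 0.0308 to 0.0822 within KO chow tissue alone. Single libraries of the 2 diets overlapped for G0s2 to Pnpla2 in both genotypes and for Abhd5 to Pnpla2 in WT mice. These ratios are given as descriptions and were not tested.

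Pnpla3 (chr15:84167837-84187236, plus strand, ENSMUSG00000041653) encodes a patatin-like lipase related to ATGL that can bind ABHD5. Its levels were 280, 520, 495 and 568 CPM in KO HFD libraries, 373, 413, 439 and 389 CPM in WT HFD libraries, 401, 575, 443 and 387 CPM in KO chow libraries, and 503, 284, 654 and 483 CPM in WT chow libraries. The groups overlapped throughout, and the spread within WT chow alone ran over a wider range than any difference of means. The log2 fold change was -0.10 (SE 0.17, edgeR adjusted p = 0.651) over both genotypes.

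Lipe (chr7:25379527-25398710, minus strand, ENSMUSG00000003123) encodes hormone-sensitive lipase, which takes the fatty acid off a diglyceride. It had 1580, 1544, 1687 and 1747 CPM in KO HFD libraries, 1876, 1291, 1373 and 1666 CPM in WT HFD libraries, 1674, 1553, 1361 and 1822 CPM in KO chow libraries, and 1702, 1617, 1700 and 1316 CPM in WT chow libraries. The 2 diets covered nearly the same range. The log2 fold change over both genotypes was 0.00 with a 95% interval of -0.22 to 0.22 (edgeR adjusted p = 0.991), an interval that leaves out changes beyond 1.16-fold in either direction.

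Mgll (chr6:88724412-88828360, plus strand, ENSMUSG00000033174) encodes monoglyceride lipase, which takes off the last fatty acid and also breaks down the endocannabinoid 2-arachidonoylglycerol. It had 1816, 2404, 2486 and 2296 CPM in KO HFD libraries, 2500, 1993, 2072 and 2090 CPM in WT HFD libraries, 1331, 1584, 1138 and 1680 CPM in KO chow libraries, and 1367, 1327, 1692 and 1142 CPM in WT chow libraries. All 8 HFD libraries lay above all 8 chow libraries, and Mgll was the only member for which this held; 6.85% of all genes had no overlap between the diets. Within a genotype the diets did not overlap for Mgll and Adrb3 alone of the 9 members, in KO mice (18.6% of all genes) as in WT mice (17.4% of all genes).

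The log2 fold change of Mgll was 0.65 in KO mice (SE 0.16, adjusted p = 0.0195), 0.65 in WT mice (SE 0.16, adjusted p = 0.0213) and 0.65 over both (SE 0.11, 95% interval 0.40 to 0.89, adjusted p = 0.000879) by edgeR. The call over both genotypes held in each of the 28 alternative fits, with log2 fold changes of 0.53 to 0.72. Within KO mice it was lost without KO chow replicate 3 (0.55, edgeR adjusted p = 0.0668), KO HFD replicate 2 (0.62, adjusted p = 0.0637) or KO HFD replicate 3 (0.60, adjusted p = 0.0651). Within WT mice it was lost without WT chow replicate 1 (0.65, edgeR adjusted p = 0.0527) or 4 (0.57, adjusted p = 0.0660), or without WT HFD replicate 1 (0.58, adjusted p = 0.0518) or 3 (0.67, adjusted p = 0.0529). Relative to Pnpla2, per kilobase, Mgll stood at 0.666 ± 0.114 in KO HFD tissue, 0.647 ± 0.143 in WT HFD tissue, 0.342 ± 0.0859 in KO chow tissue and 0.338 ± 0.0487 in WT chow tissue (SD, n = 4 each). The diets did not overlap in this ratio within either genotype.

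The promoters of the 2 members that were higher on HFD are shown because they are the genes whose calls share a direction. RefSeq's table for GRCm38.p6 gives 300 bases for each start, 250 before it and 50 after it, and held 9 windows for 7 of the 9 members, among them 2 for Mgll, whose upstream window is printed. The windows are Mgll at chr6:88724162-88724461 (plus strand) and Abhd5 at chr9:122351366-122351665 (plus strand), with matches to the motifs searched in capitals.
Mgll: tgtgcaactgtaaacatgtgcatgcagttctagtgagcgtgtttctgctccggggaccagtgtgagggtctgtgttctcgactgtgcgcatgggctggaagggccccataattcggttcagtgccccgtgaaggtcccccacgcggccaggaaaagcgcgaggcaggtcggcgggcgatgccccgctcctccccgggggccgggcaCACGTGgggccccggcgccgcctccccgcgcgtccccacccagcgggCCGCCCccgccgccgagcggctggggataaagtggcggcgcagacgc
Abhd5: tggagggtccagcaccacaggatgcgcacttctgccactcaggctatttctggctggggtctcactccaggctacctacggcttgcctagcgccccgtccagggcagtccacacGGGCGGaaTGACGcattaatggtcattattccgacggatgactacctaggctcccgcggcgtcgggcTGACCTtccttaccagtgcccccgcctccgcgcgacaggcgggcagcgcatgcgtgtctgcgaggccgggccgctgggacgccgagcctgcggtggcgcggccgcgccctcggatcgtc
All motifs were searched on both strands. The cyclic AMP response element was searched as TGACGTCA, and its short form, which lies inside the full element, as TGACG. The nuclear receptor half-site was searched as AGGTCA and the E-box as CACGTG. The GC box was searched as GGGCGG, the CCAAT box by its name, and the TATA box as TATAAA. The full cyclic AMP response element was in neither printed window and in 1.79% of all windows. The printed Mgll window held the E-box, found in 7.15% of all 32851 promoter windows, and the GC box on the opposite strand, found in 35.7%. The Abhd5 window held the GC box, the short cyclic AMP element (20.8% of windows) and the nuclear receptor half-site on the opposite strand (16.3% of windows). The GC box was in both printed windows and in 8 of the 9 windows of members. The windows of members were also rich in G and C, at 59.7% to 72.3% of bases beside a median of 52.7% over all windows. The part of base composition in these matches was not tested. The other Mgll window, at chr6:88724454-88724753, held the GC box and the short cyclic AMP element, each on the opposite strand. A match to these letters is a description of the sequence and was not tested for binding.

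Adrb3 (chr8:27225776-27250616, minus strand, ENSMUSG00000031489) encodes the beta-3 adrenergic receptor, the main catecholamine receptor of mouse adipocytes. It had 194, 289, 119 and 265 CPM in KO HFD libraries, 132, 169, 198 and 336 CPM in WT HFD libraries, 460, 417, 381 and 307 CPM in KO chow libraries, and 508, 372, 458 and 407 CPM in WT chow libraries. Within each genotype every HFD library was below every chow library. Across genotypes, WT HFD replicate 4 alone lay above a chow library, KO chow replicate 4. By edgeR the log2 fold change was -0.85 in KO mice (SE 0.28, adjusted p = 0.0597), which missed the threshold, -1.06 in WT mice (SE 0.28, adjusted p = 0.0269), and -0.96 over both (SE 0.20, 95% interval -1.39 to -0.53, adjusted p = 0.00258).

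Leaving out single libraries moved the calls of Adrb3 within a genotype. In WT mice it was not called without WT chow replicate 1 (-0.98, edgeR adjusted p = 0.0733) or 4 (-1.10, adjusted p = 0.0582), or without WT HFD replicate 1 (-0.89, adjusted p = 0.0659), 2 (-0.97, adjusted p = 0.0733) or 3 (-1.04, adjusted p = 0.0800). In KO mice it was called without KO chow replicate 4 (-0.95, edgeR adjusted p = 0.0460), WT HFD replicate 1 (-0.85, adjusted p = 0.0493) or WT HFD replicate 4 (-0.85, adjusted p = 0.0299). The test of whether the diet difference itself varied with genotype gave 0.21 (95% interval -0.63 to 1.06, edgeR adjusted p = 0.999935). Reads were counted without regard to strand, and 839 exonic bases of Adrb3 are shared with the opposite-strand gene Gm45470. Gm45470 was also lower on HFD, by -1.12 on the log2 scale (SE 0.20, edgeR adjusted p = 0.000898), and reads of the shared stretch cannot be assigned to one of the pair. Gm45470 was at 12.3 to 60.9 CPM.

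Thermogenic adipocyte markers fell beside Adrb3. Of 6, 4 were lower on HFD by edgeR over both genotypes, among them Ucp1, the uncoupling protein of heat-producing fat, at means of 1.26 CPM on HFD and 88.3 CPM on chow, and Cidea, at 27.4 CPM on HFD and 176 CPM on chow. Of all 16549 genes, 33.1% were called in that comparison, 2827 higher and 2644 lower. Summed, the 6 thermogenic markers lay between 56.4 and 89.8 CPM in KO HFD libraries, 46.6 and 107 CPM in WT HFD libraries, 198 and 734 CPM in KO chow libraries, and 193 and 664 CPM in WT chow libraries. Of 8 general adipocyte markers, 1 was higher and 4 were lower on HFD, with log2 fold changes from -2.26 to 1.90. Their summed levels, which the most abundant of them dominate, overlapped between all 4 groups, within 11881 to 16958 CPM. Sympathetic nerve and Schwann cell markers were also lower on average on HFD: all 4 tested of 6 had log2 fold changes below 0 (median -0.43). Of these 4, 1 was called lower by edgeR, a share not above the 33.1% of all genes called. Summed, the 6 lay between 25.2 and 32.4 CPM in KO HFD libraries, 27.4 and 35.3 CPM in WT HFD libraries, 34.2 and 58.6 CPM in KO chow libraries, and 33.7 and 46.8 CPM in WT chow libraries. The part of thermogenic adipocytes or nerve in the Adrb3 difference was not tested.

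Adra2a (chr19:54044151-54048982, plus strand, ENSMUSG00000033717, a single exon) encodes the alpha-2A receptor, which couples to inhibition of adenylyl cyclase. Its levels were 2.19, 0.734, 0.614 and 0.349 CPM in KO HFD libraries, 0.508, 1.72, 0.798 and 0.756 CPM in WT HFD libraries, 2.33, 0.678, 1.81 and 0.625 CPM in KO chow libraries, and 1.37, 1.30, 0.266 and 1.40 CPM in WT chow libraries. The groups overlapped completely, and the log2 fold change of HFD against chow, -0.34 with a 95% interval of -1.28 to 0.60 (edgeR adjusted p = 0.572), spans a wide range at this depth. With the lymphoid score as a covariate its sign was the opposite, 0.24 (adjusted p = 0.546).

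Several members differed between libraries of high and low lymphoid score. On HFD, Adra2a was at 1.72 and 2.19 CPM in the 2 libraries of high score and at 0.349 to 0.798 CPM in the 6 of low score. On chow, it was at 1.30 to 2.33 CPM in the 4 libraries of high score and at 0.266 to 1.37 CPM in the 4 of low score. Mgll ran the other way: on HFD it was at 1816 and 1993 CPM in the libraries of high score and 2072 to 2500 CPM in those of low score. On chow it was at 1138 to 1331 CPM in those of high score and 1367 to 1692 CPM in those of low score. Mgll thus did not overlap between high and low scores on either diet, while Adra2a did not overlap on HFD and overlapped on chow. G0s2 was at 331 and 336 CPM in the HFD libraries of high score and 345 to 590 CPM in those of low score, and overlapped on chow, at 236 to 300 CPM in those of high score and 259 to 522 CPM in those of low score. The other 6 members overlapped on both diets, and each of them had a lower median at high score on each diet. The share of all genes without overlap in these splits was not computed, so the overlaps are given as descriptions. The HFD split sets only 2 libraries against 6. The part of lymphoid RNA in the diet differences was not tested beyond the fits given here. In the 10 libraries of low score alone, the log2 fold change of Mgll over both genotypes was 0.54 and was still called (edgeR adjusted p = 0.00816), while Adrb3 was at -0.91 and was not (adjusted p = 0.0667).

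**Figure D3:**
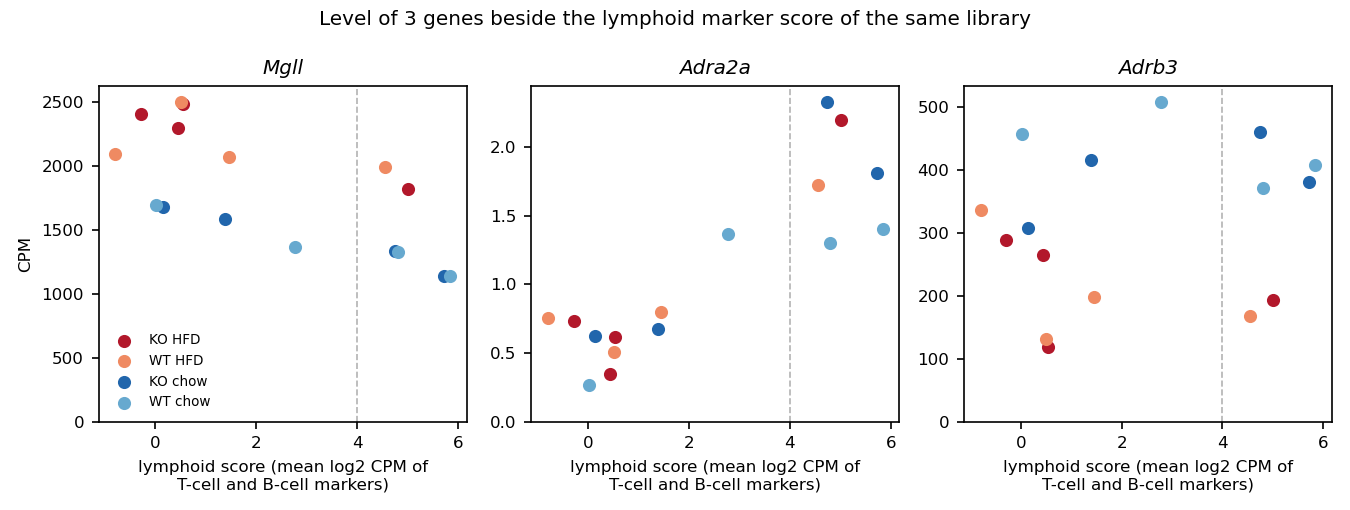
Level of Mgll, Adra2a and Adrb3 (CPM, axes from 0) against the lymphoid score of the same library, each point being 1 of 16 libraries coloured by group, with a dashed line at a score of 4. To the right of the line Mgll points lie below the others of their diet, and Adra2a points at 1.30 CPM and above.

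Pde3b (chr7:114415281-114539251, plus strand, ENSMUSG00000030671) encodes the phosphodiesterase through which insulin lowers cyclic AMP in adipocytes. It had 448, 463, 441 and 531 CPM in KO HFD libraries, 418, 353, 460 and 514 CPM in WT HFD libraries, 438, 641, 481 and 490 CPM in KO chow libraries, and 565, 476, 434 and 393 CPM in WT chow libraries. The diets overlapped in both genotypes, and the log2 fold change was -0.11 over both (95% interval -0.34 to 0.11, edgeR adjusted p = 0.441). Per kilobase, the ratio of Adrb3 to Pde3b was 1.23 ± 0.398 in KO HFD tissue, 1.27 ± 0.380 in WT HFD tissue, 2.11 ± 0.524 in KO chow tissue and 2.55 ± 0.345 in WT chow tissue (SD, n = 4 each).

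**Figure D4:**
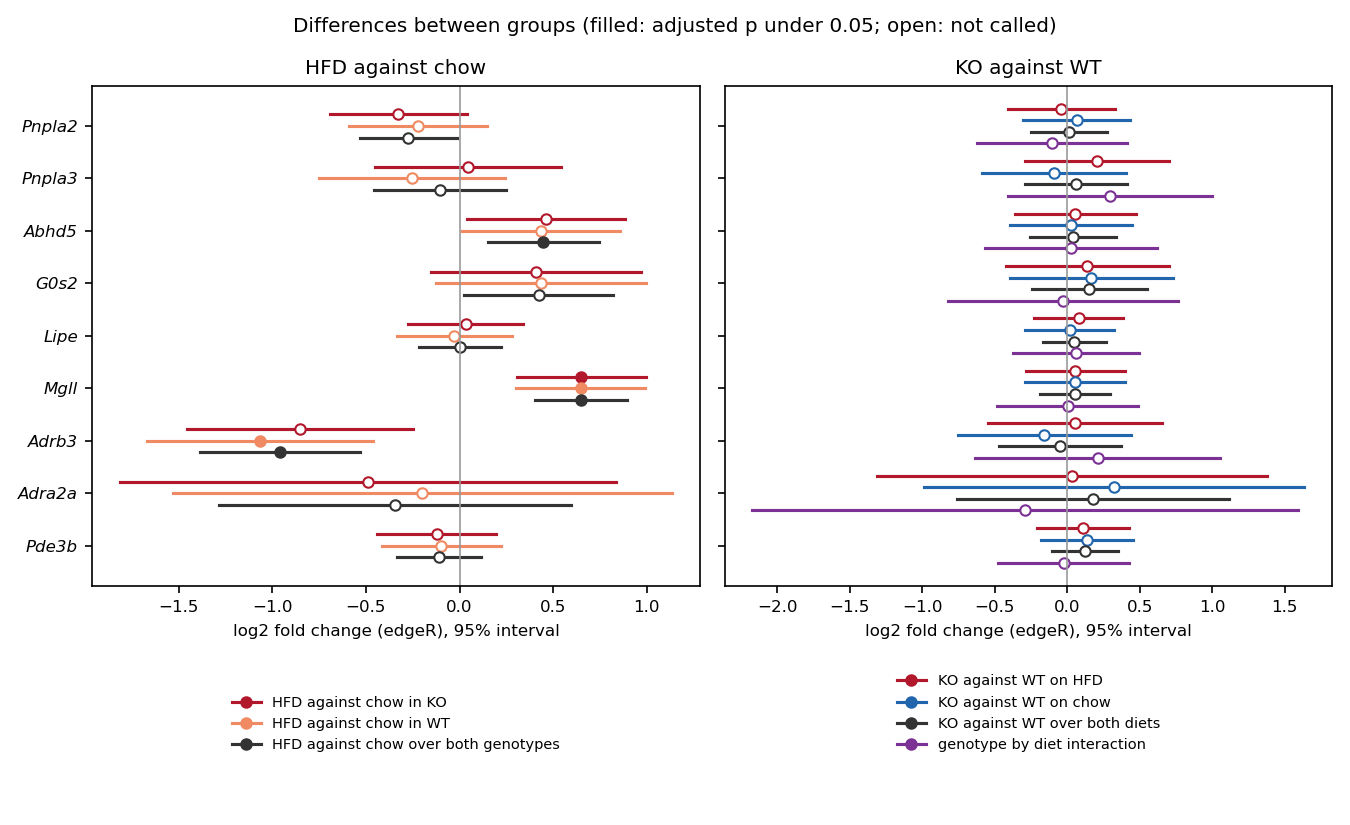
Log2 fold changes by edgeR with 95% intervals for the 9 genes, for HFD against chow on the left and for KO against WT and the genotype by diet interaction on the right; filled points passed an adjusted p of 0.05. On the left Mgll, Abhd5 and Adrb3 have filled points, and on the right no point is filled.

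The second comparison asked whether loss of Kmo altered these genes, on each diet and over both. No member was called for KO against WT on HFD, on chow or over both diets, where 1 of 16549 genes was called each time (0.00604%); that gene was Kmo itself over both diets. The lowest unadjusted p of any member was 0.266, that of Pde3b over both diets. Over both diets the members' log2 fold changes lay between -0.05 for Adrb3 and 0.18 for Adra2a, with a median of 0.05 beside 0.00 over all genes. The 95% intervals were -0.25 to 0.27 for Pnpla2, -0.17 to 0.27 for Lipe, -0.19 to 0.30 for Mgll, -0.25 to 0.34 for Abhd5 and -0.10 to 0.35 for Pde3b. They were wider for G0s2 (-0.24 to 0.55), Pnpla3 (-0.29 to 0.41), Adrb3 (-0.47 to 0.37) and Adra2a (-0.76 to 1.12). Differences inside these intervals, from 8 KO and 8 WT libraries, are not excluded.

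On HFD, the KO libraries averaged 2251 ± 300 CPM of Mgll against 2164 ± 228 CPM in the WT libraries, and 217 ± 76.5 CPM of Adrb3 against 209 ± 89.1 CPM (SD, n = 4 each). On chow, the KO libraries averaged 1434 ± 246 CPM of Mgll against 1382 ± 229 CPM in the WT libraries, and 391 ± 64.7 CPM of Adrb3 against 436 ± 59.5 CPM. Each of these differences of means was smaller than the SD within either group. In the authors' deposited table of KO against WT, the shrunken log2 fold changes of the 9 genes were at most 0.000253 in size on either diet. Shrinkage makes estimates smaller, so these values do not measure how small the differences were. By edgeR, without shrinkage, the largest in size were 0.32 for Adra2a on chow and 0.21 for Pnpla3 on HFD. Muscle markers, though uncalled, had a median log2 fold change of -1.85 in KO against WT over both diets; their part in the members' values was not tested.

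The interaction, which is the diet difference in KO mice minus that in WT mice, was called for 0 of 9 members and for 0% of all genes. Among all genes 187 had an unadjusted p under 0.05, and no member did. Its estimates ran from -0.29 for Adra2a to 0.30 for Pnpla3 on the log2 scale. For Mgll it was 0.00 with a 95% interval of -0.48 to 0.49. DESeq2 and limma-voom called no member for the genotype comparisons or the interaction either.

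Other genes of the pathway were taken from 10 lists with 77 genes, of which 73 were tested. Over both genotypes, 24 were higher on HFD, 11 were lower and 38 were not called, with a median log2 fold change of 0.11 beside -0.04 for all genes and 33.1% of all genes called. In KO mice 16 were higher and 2 lower, where 12.5% of all genes were called. In WT mice 14 were higher and 2 lower, against 11.8% of all genes. None was called for KO against WT on either diet or over both, or for the interaction. With upper-quartile scaling 32 of the 35 calls stayed in the same direction, and in the 10 libraries of low lymphoid score 23 did; none changed sign in either. By list, the subset kept 4 of 4 calls for adrenergic receptors and 5 of 6 for G proteins and cyclases. For protein kinase A it kept 1 of 2, for phosphodiesterases 3 of 5, and for the natriuretic route 2 of 2. Among restraining receptors and mediators it kept 2 of 5, and among patatin-like phospholipases 1 of 2. It kept 2 of 3 each for neutral lipid hydrolases and droplet proteins, and 1 of 3 for catecholamine clearance. Both settings were applied to these genes after seeing the data, and the subset itself was chosen then. All fold changes given next are edgeR log2 fold changes of HFD against chow over both genotypes, with SEs from 0.07 for Adcy6 to 0.63 for Aadac.

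Of the 6 other adrenergic receptors tested, 2 were higher and 2 lower. Adrb1, the beta-1 receptor, was lower: it averaged 9.61 CPM on HFD and 19 CPM on chow (-0.97, SE 0.26, adjusted p = 0.0110). The alpha-1 receptors, which signal through calcium, went the other way. Adra1a averaged 37.8 CPM on HFD and 17.8 CPM on chow (1.08, SE 0.13, adjusted p = 8.62e-05), and Adra1d 14 CPM on HFD and 10.4 CPM on chow (0.41, SE 0.11, adjusted p = 0.0117). The third alpha-1 receptor, Adra1b, was at 0.78 without a call.

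Downstream of the receptors, 5 of 13 G protein and adenylyl cyclase genes were higher and 1 was lower. Adcy5, a cyclase inhibited by Gi, averaged 390 CPM on HFD and 190 CPM on chow (1.04, adjusted p = 0.000117). Gnai1, an inhibitory G protein subunit, averaged 435 CPM on HFD and 281 CPM on chow (0.63, adjusted p = 0.00248), and Adcy6 was higher by 0.31 (adjusted p = 0.00346). The soluble cyclase Adcy10 fell to 1.78 CPM on HFD, against 6.03 CPM on chow (-1.80, adjusted p = 0.000520). Of 7 genes for protein kinase A subunits and an anchor, the 2 regulatory subunits Prkar2a (0.58, adjusted p = 0.000765) and Prkar2b (0.37, adjusted p = 0.0249) were higher, and neither catalytic subunit tested was called.

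Among 11 other phosphodiesterases acting on cyclic AMP, 3 were higher and 2 lower. Pde7a (0.72, adjusted p = 0.000290), Pde4d (0.50, adjusted p = 0.00214) and Pde3a (0.67, adjusted p = 0.00248) were higher, while Pde1b was lower (-0.39, adjusted p = 0.0199). Pde3a, the paralogue of Pde3b, averaged 10.8 CPM on HFD and 6.83 CPM on chow. The natriuretic peptide route had 1 higher and 1 lower of 4 genes. Its clearance receptor Npr3 averaged 2380 CPM on HFD and 1111 CPM on chow (1.10, SE 0.20, adjusted p = 0.00112), and Npr2 was lower (-0.36, adjusted p = 0.0155).

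Among 11 receptors and mediators that restrain lipolysis, 3 were higher and 2 lower. Ffar2, a short-chain fatty acid receptor, averaged 198 CPM on HFD and 97.2 CPM on chow (1.03, adjusted p = 0.000117). Ptger3, a prostaglandin E2 receptor, averaged 222 CPM on HFD and 114 CPM on chow (0.96, adjusted p = 0.00201). Irs2, an insulin receptor substrate, was higher (0.53, adjusted p = 0.0249), and Npy1r, a neuropeptide Y receptor, was lower (-0.66, adjusted p = 0.0166). The Npy1r call was lost in the 10 libraries of low lymphoid score.

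Of 4 other patatin-like phospholipases tested, Pnpla8 was higher (0.29, adjusted p = 0.0318) and Pnpla7 lower (-0.38, adjusted p = 0.0152). The Pnpla8 call was lost with upper-quartile scaling and in the 10 libraries of low lymphoid score. Of 7 other neutral lipid hydrolases, 2 were higher and 1 lower. Daglb, a diglyceride lipase that makes 2-arachidonoylglycerol, averaged 45.5 CPM on HFD and 20.7 CPM on chow (1.14, adjusted p = 0.000496), and Aadac was higher at low counts (1.76, adjusted p = 0.0436). Ddhd2, a lipase of the phospholipase A1 family, was lower (-0.67, adjusted p = 0.000676).

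In a list of 6 genes, droplet proteins together with Fabp4 and Aqp7, 3 were higher and none lower. Hilpda, an inhibitor of ATGL, averaged 37.7 CPM on HFD and 9.85 CPM on chow (1.94, SE 0.29, adjusted p = 0.000436). Cidec, which promotes droplet fusion, averaged 3791 CPM on HFD and 2342 CPM on chow (0.70, adjusted p = 0.000418), and Aqp7, a glycerol channel, was higher by 0.41 (adjusted p = 0.0102). Of the 4 tested genes of catecholamine clearance, Maoa (0.94, adjusted p = 0.000633) and Slc22a3 (0.44, adjusted p = 0.00810) were higher and Maob was lower (-0.35, adjusted p = 0.0325). The Maob call was lost in the 10 libraries of low lymphoid score. Beside these lists, the nerve markers Th and Dbh, which make catecholamines, were too low to test. Th averaged 0.00872 CPM on HFD and 0.0469 CPM on chow.

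**Figure D5:**
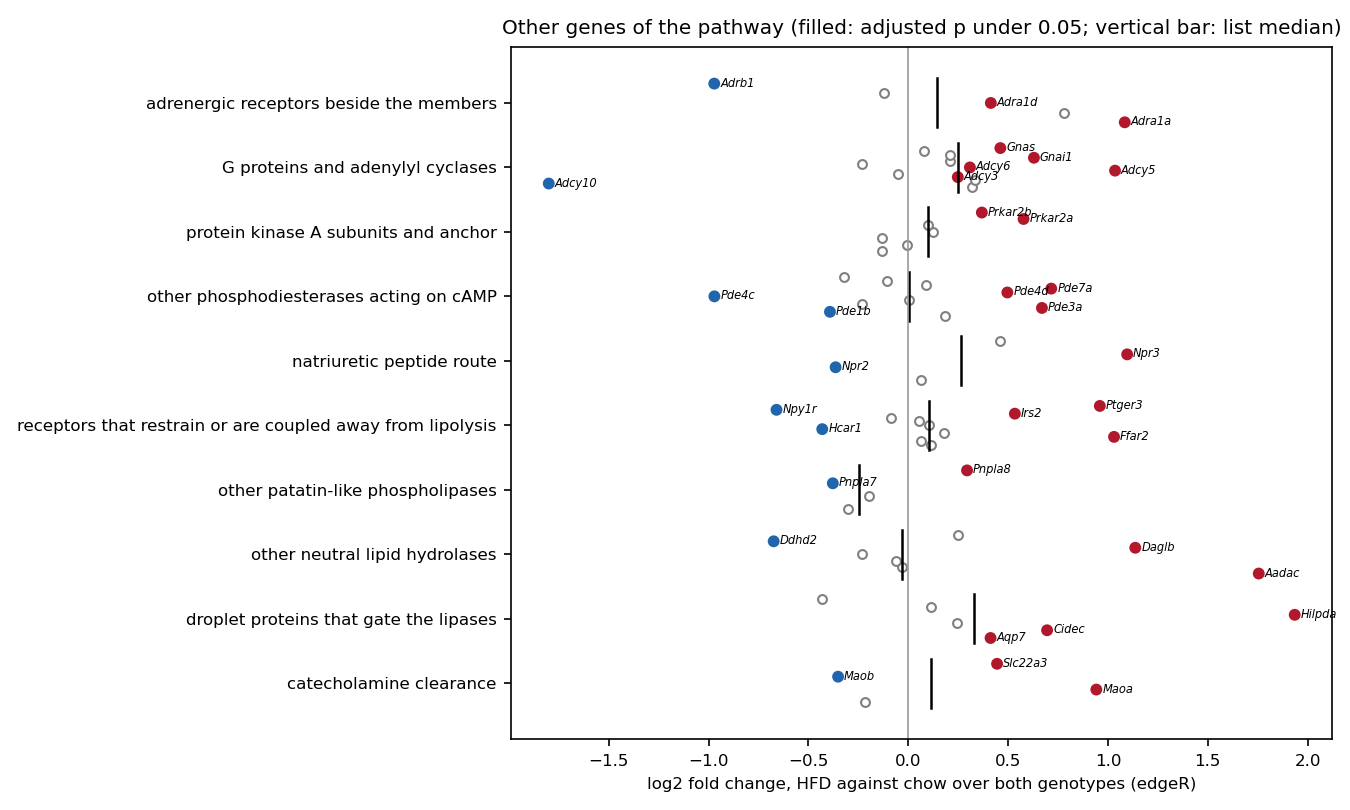
The edgeR log2 fold change of HFD against chow over both genotypes for tested genes of 10 pathway lists, 1 of them not drawn, each point being a gene, filled where the adjusted p was under 0.05, with a vertical bar at the median of all tested genes of the list. Filled points lie on both sides of 0, and more of them lie above it than below.

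The genes whose levels ran most like each member's were taken by Pearson correlation of log2 CPM over the 16 libraries, among 9533 genes with a mean of at least 10 CPM. These correlations describe libraries that share diet groups and tissue makeup. Closest to Mgll were Bcl2l13 (r = 0.98), Gpr180 (0.98) and Pcyox1 (0.98), and closest to Abhd5 were Slc25a5 (0.96), Grk5 (0.95) and Eif1a (0.93). For Adrb3 they were H2-Q10 (0.92), Mogat1 (0.91) and Nat8l (0.91). Pnpla2 ran closest to Mettl7a1 (0.93), Sod1 (0.92) and Pttg1 (0.91), and Pnpla3 to Usp2 (0.92) and Msmo1 (0.88). Lipe ran closest to Palm (0.88), Nlrx1 (0.87) and Dab2ip (0.86), G0s2 to Syt12 (0.88), Nrbf2 (0.85) and Plekha3 (0.84), and Pde3b to Crot (0.91), Rb1cc1 (0.90) and Acbd5 (0.90). Adra2a ran closest to Ralgps2 (0.92), H2-Ob (0.91) and Chst3 (0.91).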

How the data were processed

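Poly-A RNA from the inguinal fat of 16 male mice, with an integrity number above 7, was sequenced with a stranded kit and paired reads of 150 bases, per the labels' protocols. The submitters' processing notes and the file header name STAR 2.7.3a, the build GRCm38.p6, and featureCounts 2.0.3 with Ensembl annotation 102; the authors' gene counts are of read pairs, taken without regard to strand. Strand was not used, so reads of overlapping genes on opposite strands cannot be told apart. The deposited counts were used as they stand. The authors also deposited tables of KO against WT on each diet with shrunken log2 fold changes and p-values, which supplied the gene symbols; beyond these, only the members' values were read from them.

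Genes were filtered with filterByExpr, scaled by TMM factors and fitted with edgeR 4.0.16 (R 4.3.3) as 4 group means over all 16 libraries, with a robust quasi-likelihood test and Benjamini-Hochberg adjustment over 16549 genes at 0.05. The contrasts tested were HFD against chow in KO mice, in WT mice and over both, KO against WT on HFD, on chow and over both, and the interaction. The labels list the libraries as separate samples; the p-values measure the spread between these samples. Alternatives were RLE and upper-quartile factors, DESeq2 1.42.0, limma 3.58.1 voom with quality weights, no filter on low counts, fits of only the groups compared, a replicate block, lymphoid and muscle scores as covariates, subsets of libraries and leaving out each library.

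The members and lists were chosen with earlier results of these data known. All 9 members are named. Of each pathway list, up to 4 genes called for HFD against chow over both genotypes are named, by adjusted p; of the likeness ranking, the 3 closest genes to each member, leaving out predicted genes. Results that need items withheld from this text are not reported here.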

Additional observations from a re-analysis of the deposited data

Results flagged for a closer look

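In 36 groups of 4 values (9 genes by 4 groups), 3 single libraries stood apart by Dixon's criterion, which asks whether the gap to the nearest library, as a share of the range of the group, exceeds a 95% critical value. Chance alone would be expected to flag about 0.05 of such groups. Pnpla2 in WT chow replicate 4 was at 2310 CPM, with a gap of 0.886 of the range, in a group whose SD was only 78.0 CPM. G0s2 in WT HFD replicate 4 was at 590 CPM, a gap of 0.944 of the range, against 331 to 346 CPM in the other libraries of that group. Adra2a in WT chow replicate 3 was at 0.266 CPM, a gap of 0.911 of the range, against 1.30 to 1.40 CPM in the others.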

How the results depend on the processing

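Over both genotypes, Mgll was called in 28 of 28 alternatives and Adrb3 in 27 of 28 (log2 fold changes -1.20 to -0.86), the exception being the 10 libraries of low lymphoid score. Abhd5 was called in 25 of 28. The exceptions were that subset, the 12 libraries merged over lanes and the fit without WT HFD replicate 3. The count of members called over both genotypes, 3, moved furthest to 5 with limma-voom and to 1 in the low-score subset, and ranged from 2 to 4 without single libraries. It also moved in the other fits where Pnpla2 or G0s2 was gained or Abhd5 was lost, which are named here. Within KO mice, 1 became 2 with upper-quartile factors, DESeq2, limma-voom, the lymphoid score, the muscle score or both as covariates, and 0 with the replicate block or in the low-score subset, with 0 to 2 without single libraries. Within WT mice, 2 became 1 without a filter on low counts or in the merged libraries, and 0 with the replicate block or in the low-score subset, with 0 to 3 without single libraries. The cause of these moves was not tested, and the subsets hold fewer libraries. Of all genes, the low-score subset called 768 in KO mice and 625 in WT mice. The replicate block called 1126 in KO mice and 1050 in WT mice. Pnpla2 over both genotypes was also called with upper-quartile factors, DESeq2, limma-voom, and the lymphoid score, alone or with the muscle score, as covariate. G0s2 was called with limma-voom and with the replicate block. KO against WT and the interaction gave 1026 alternative values of members, of which 0 were called (lowest adjusted p = 0.880) and 117 changed sign.

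Replicate numbers did not pair the libraries: correlations of same-numbered libraries ran from -0.69 to 0.55 over 24 pairs, with 9 above 0.1, and 5 of 16 libraries correlated best with their own number. With the replicate block, Mgll had an adjusted p of 0.0555 in KO and 0.0560 in WT mice, and Adrb3 0.0505 in WT mice, by edgeR. Over all genes, the calls ranged from 745 (without KO HFD replicate 2) to 3412 (limma-voom) around 2071 in KO mice, from 225 (merged libraries) to 2778 (DESeq2) around 1957 in WT mice, and from 3544 (low-score subset) to 6294 (limma-voom) around 5471 over both. Upper-quartile factors gave 2309 higher and 3298 lower genes over both genotypes, beside 2827 and 2644 with TMM. In KO mice they gave 919 higher and 1113 lower, beside 1205 and 866. In WT mice they gave 902 higher and 1031 lower, beside 1142 and 815. At 4 to 37 counts a library, Adra2a is limited by depth.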

Other observations

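Outside the lipolytic pathway, several adipocyte genes also differed between the diets by edgeR over both genotypes. Lep, the adipocyte hormone leptin, was higher on HFD by 1.90 on the log2 scale. Cfd, the adipokine adipsin (-1.24), Slc2a4, the insulin-dependent glucose transporter (-0.76), Thrsp, a regulator of lipid synthesis (-2.26), and Pparg, the adipocyte transcription factor (-0.35), were lower on HFD. Adipoq, Plin4 and Retn were not called. Of the macrophage markers 2 of 7, Adgre1 and Cd68, were higher on HFD, as were 3 of 5 endothelial and 2 of 6 fibroblast markers; 33.1% of all genes were called in that comparison, so the macrophage and fibroblast counts are near the background. For KO against WT, no marker of these lists was called on either diet.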
